A study of Mus musculus with 12 samples.

Results

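The Fc, TREM and TARM receptor genes, with their signalling adaptors, were followed across 12 RNA sequencing libraries of mouse peritoneal macrophages. The members were picked by gene symbol, under a rule that reads no expression value but was written with earlier results of these data known, and are 10 of the 41388 genes in the deposited tables. The set holds the 4 Fcγ receptor genes Fcgr1, Fcgr2b, Fcgr3 and Fcgr4, the 2 signalling adaptor genes Fcer1g and Tyrobp, and the receptor genes Trem1, Trem2, Trem3 and Tarm1. The macrophages had been recruited to the peritoneum by thioglycolate, an irritant broth, collected on day 4 and put into culture before an 8 h stimulation. There were 4 groups of 3 libraries. The first came from cells labelled as PPARγ knockouts and given 250 uM palmitate, a saturated fatty acid, with LPS, a bacterial endotoxin, at 100 ng/ml. The second came from Cre control cells given the same palmitate and LPS. The third came from labelled knockout cells in the BSA-PBS vehicle, and the fourth from Cre control cells in the same vehicle. All 4 groups carried the LysM-Cre driver, which is active in macrophages and also in other myeloid cells such as neutrophils, so control and labelled knockout shared the Cre. The sources used here give neither the sex and age of the mice nor whether the replicates of a group came from separate animals. The p-values therefore measure the spread between these libraries, which may be technical.

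Fcγ receptors bind the constant part of immunoglobulin G and link antibody-coated particles to phagocytosis and cytokine release. The activating receptors of the mouse, encoded by Fcgr1, Fcgr3 and Fcgr4, signal through the ITAM motif of the common γ chain, the product of Fcer1g, while FcγRIIB, encoded by Fcgr2b, carries an inhibitory ITIM motif in its own tail. TREM receptors signal through a second ITAM adaptor, DAP12, encoded by Tyrobp: TREM1 amplifies responses to microbial products, and TREM2 binds lipids and lipoproteins and tunes macrophage survival and lipid handling. TARM1 is an activating receptor of mouse myeloid cells that pairs with the common γ chain.

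The libraries held 17960457 to 22696385 counts each. Principal component 1 (89.9% of the variance) split them by treatment. On component 2 (3.91%) replicate 1 of the vehicle labelled knockout group stood apart, at 30 against -4.08 and -8.15 for its other replicates, and several results below are also given without it. Pparg, the gene named in the knockout label, did not follow that label. It had 111, 91 and 95.9 TMM CPM (CPM after TMM scaling, that is, reads relative to the scaled library total) in the vehicle libraries labelled knockout, against 62.3, 61.6 and 61 in the vehicle controls, higher by 0.69 ± 0.11 on the log2 scale (standard error; edgeR adjusted p = 0.00124). After palmitate plus LPS it had 3.59, 5.04 and 4.73 TMM CPM in the labelled knockout libraries, against 3.63, 2.86 and 4.14 in the controls, which overlapped (log2 difference 0.33 ± 0.16, edgeR adjusted p = 0.177). Stimulation lowered it in both, with log2 changes of -4.47 ± 0.14 in labelled knockout and -4.12 ± 0.14 in control cells (edgeR adjusted p = 8.29e-14 and 3.22e-13). Counts over the whole gene include exons outside any deleted part and cannot check a deletion, so "labelled knockout" is used throughout, and each genotype direction below is a direction between labels. Macrophage markers were abundant in every group, with Cd68 at 4570 ± 88.5, 4170 ± 304, 5870 ± 1210 and 4950 ± 410 TMM CPM in stimulated labelled knockout, stimulated control, vehicle labelled knockout and vehicle control libraries (SD, n = 3 each). Lyz2, the gene that carries the Cre in this driver, was low for a macrophage marker, at 84.3 ± 5.38, 114 ± 6.82, 26.6 ± 3.62 and 21.2 ± 2.12 TMM CPM in the same order of groups. Of the defining markers of other cell types, Ly6g of neutrophils and Gzma of cytotoxic lymphocytes were at 0 in every library.

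The genes lie on 4 chromosomes, with positions in GRCm38 as deposited. Fcgr2b (ENSMUSG00000026656, chr1:170960558-170976547, minus strand), Fcgr4 (ENSMUSG00000059089, chr1:171018920-171029761, plus strand), Fcgr3 (ENSMUSG00000059498, chr1:171051174-171064935, minus strand) and Fcer1g (ENSMUSG00000058715, chr1:171229572-171234365, minus strand) are neighbours on chromosome 1. Trem1 (ENSMUSG00000042265, chr17:48232768-48246924), Trem3 (ENSMUSG00000041754, chr17:48247777-48258841) and Trem2 (ENSMUSG00000023992, chr17:48346401-48354147) lie on the plus strand of chromosome 17. Fcgr1 (ENSMUSG00000015947, chr3:96282909-96293969, minus strand) stands alone on chromosome 3. Tarm1 (ENSMUSG00000053338, chr7:3489079-3502465, minus strand) and Tyrobp (ENSMUSG00000030579, chr7:30413788-30417577, plus strand) are far apart on chromosome 7. No exon of a member overlapped an exon of another gene. Fcgr2b and Fcgr3 share part of their sequence: 166 of the 1733 stretches of 50 bases in Fcgr3 transcripts of the GENCODE annotation, 9.58%, also occur in Fcgr2b, and 395 of the 5685 in Fcgr2b, 6.95%, occur in another gene, and reads from the shared stretches cannot be told apart. The other members shared no such stretch.

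The promoters of 4 members are shown because the results turn on them: Fcgr1 and Fcgr4 responded differently in the labelled knockout cells, Tarm1 had the largest response and Trem2 is the most abundant of the TREM genes. The sequences are those of RefSeq for GRCm38.p6, read 5′ to 3′ along the gene from base -250 to base -11 before the RefSeq start. Capitals mark matches, on either strand, to a GAS element (TTCNNNGAA), the core of an interferon-stimulated response element, ISRE (GAAA, any 2 bases, GAAA), or the core of a PU.1 site (GAGGAA). The windows are chr3:96293980-96294219 (minus strand) for Fcgr1, chr1:171018676-171018915 (plus strand) for Fcgr4, chr7:3502635-3502874 (minus strand) for Tarm1 and chr17:48346151-48346390 (plus strand) for Trem2.
Fcgr1: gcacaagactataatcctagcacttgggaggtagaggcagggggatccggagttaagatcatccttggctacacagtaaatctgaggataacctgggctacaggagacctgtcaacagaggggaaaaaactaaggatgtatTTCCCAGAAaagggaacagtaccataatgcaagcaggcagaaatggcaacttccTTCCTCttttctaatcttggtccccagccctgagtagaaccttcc
Fcgr4: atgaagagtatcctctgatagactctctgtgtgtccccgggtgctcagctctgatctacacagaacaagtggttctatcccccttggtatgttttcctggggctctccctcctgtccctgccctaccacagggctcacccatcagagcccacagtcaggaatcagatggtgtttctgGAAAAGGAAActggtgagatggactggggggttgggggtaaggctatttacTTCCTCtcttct
Tarm1: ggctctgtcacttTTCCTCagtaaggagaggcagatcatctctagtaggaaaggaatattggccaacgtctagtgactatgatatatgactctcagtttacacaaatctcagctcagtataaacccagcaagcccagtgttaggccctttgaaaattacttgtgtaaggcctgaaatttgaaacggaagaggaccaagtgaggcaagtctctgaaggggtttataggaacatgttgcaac
Trem2: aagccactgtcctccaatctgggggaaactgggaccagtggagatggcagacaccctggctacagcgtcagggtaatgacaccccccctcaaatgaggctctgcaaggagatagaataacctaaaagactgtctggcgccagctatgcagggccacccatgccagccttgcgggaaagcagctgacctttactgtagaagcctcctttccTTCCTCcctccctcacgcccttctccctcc

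A promoter was in the RefSeq table for 8 of the 10 members, and 7 motifs were searched in the 250 bases before each start. Fcgr3 had 2 RefSeq starts, both inside the deposited gene, with 27 and 18 of 240 upstream bases in its deposited exons. The Fcgr2b window also lay inside the deposited gene, with 177 of 240 bases in its exons. Matches in these windows are counted with the rest. The GAS letters occurred in Fcgr1 (-109 to -101) and in Trem1 (-171 to -163), and in 7.02% of the 32851 promoter windows of the same length. The ISRE core occurred in Fcgr4 (-73 to -64) and in 2.98% of all windows. The PU.1 core, the site of the myeloid lineage factor, occurred in 6 of the 8 members with a promoter and in 23.3% of all windows. A C/EBP match (TTGCNNAA) was in Fcgr3, against 9.56% of windows, and an AP-1 match (TGANTCA) in Trem2, against 6.75%. No member held the NF-kB letters (GGGA, any base, TTTCC, in 0.356% of windows) or a PPAR response element of the DR1 type (AGGTCA repeated with 1 base between, in 0.0335%). A match is a run of letters and says nothing of binding in these cells.

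Levels of different genes were compared per kilobase of exon. In the vehicle controls the order was Tyrobp at 2570 ± 207, Fcer1g at 1540 ± 107, Trem2 at 290 ± 20.9, Fcgr3 at 262 ± 26.3, Fcgr4 at 48.2 ± 3.33, Fcgr2b at 28.7 ± 1.13, Fcgr1 at 12.4 ± 0.774 and Tarm1 at 0.796 ± 0.195 TMM CPM per kilobase (SD, n = 3 each). Both adaptors thus stood above every receptor they serve, and Trem2 and Fcgr3 lay within their spread of each other. In the stimulated labelled knockout libraries the order was Fcer1g at 3120 ± 144, Tyrobp at 1090 ± 24.2, Tarm1 at 256 ± 19.8, Trem2 at 98.7 ± 0.627, Fcgr2b at 66.5 ± 7.59, Fcgr3 at 52.4 ± 7.11, Fcgr1 at 34.9 ± 8.87 and Fcgr4 at 33.3 ± 5.15 TMM CPM per kilobase. The adaptors had exchanged places, Tarm1 was now the leading receptor, and Fcgr1 and Fcgr4 lay within their spread of each other. In the stimulated controls Trem2 at 109 ± 7.1, Fcgr2b at 109 ± 18.8 and Fcgr3 at 96.2 ± 11.3 TMM CPM per kilobase differed by less than the SD between libraries, although within each of those libraries Fcgr2b was above Fcgr3, by ratios of 1.05, 1.18 and 1.17.

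Of the 10 members, 8 passed the filter on low counts and were tested among 12914 genes with the quasi-likelihood test of edgeR, a call being a Benjamini-Hochberg adjusted p under 0.05. Trem1 and Trem3 did not pass. In control cells palmitate plus LPS raised 3 of the 8 tested members (Fcgr2b, Fcer1g and Tarm1) and lowered 4 (Fcgr3, Fcgr4, Tyrobp and Trem2), in a comparison that called 66.7% of all genes (32.0% higher and 34.7% lower). In labelled knockout cells it raised 5 (Fcgr1, Fcgr2b, Fcgr4, Fcer1g and Tarm1) and lowered 3 (Fcgr3, Tyrobp and Trem2), where 69.4% of all genes were called (33.7% higher and 35.6% lower). Counts this close to the background of such a broad response do not set the members apart, and the sizes and directions below carry the description. Between genotypes, 1 member was lower in labelled knockout cells in vehicle, Fcgr4, with 3.80% of all genes called (2.11% higher and 1.69% lower). After palmitate plus LPS, 1 was higher (Fcgr1) and 3 were lower (Fcgr2b, Fcgr3 and Tarm1), with 16.1% of all genes called (6.10% lower and the remaining 10% higher). The interaction, the log2 response of labelled knockout cells minus that of control cells, was called for all 4 Fcγ receptor genes and for none of the other 4 tested members, with 8.05% of all genes called (4.70% positive and 3.35% negative). Without vehicle labelled knockout replicate 1, 2 members were higher and 4 lower in labelled knockout cells after stimulation, and the interaction was called for 1 positive and 1 negative member, Fcgr4 and Fcgr2b. The all-gene shares of that fit are not given here, so these counts have no background beside them.

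**Figure D1:**
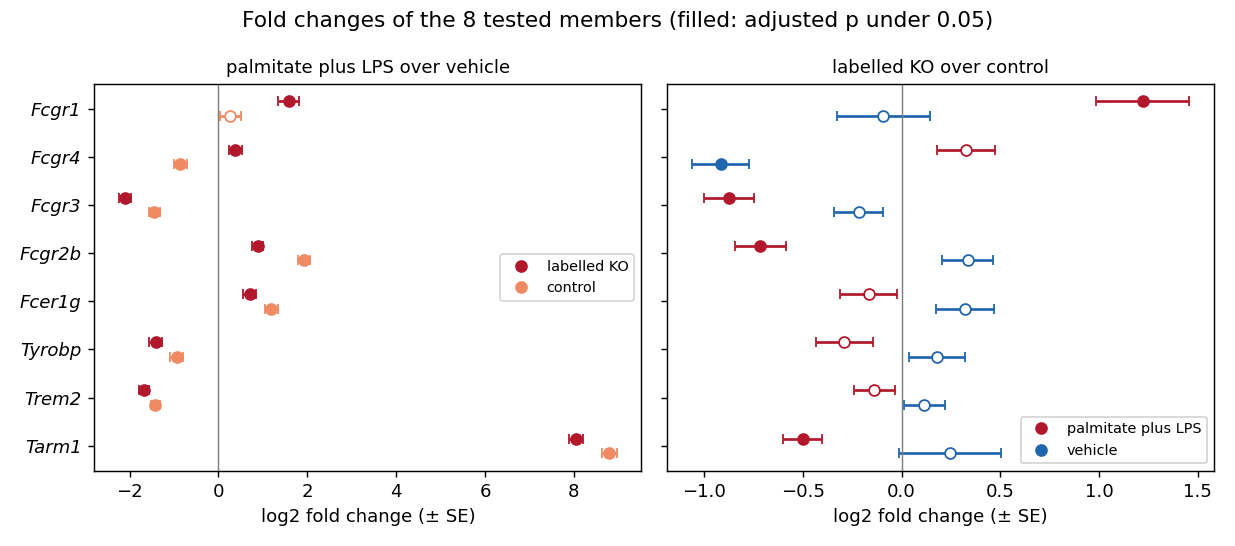
Log2 fold changes of the 8 tested members with their standard errors; the left panel gives palmitate plus LPS over vehicle in labelled knockout and control cells, the right panel labelled knockout over control in each treatment, and filled points had an adjusted p under 0.05. Fcgr1 and Fcgr4 lie further right in labelled knockout than in control cells on the left, Fcgr2b and Fcgr3 further left, and Tarm1 stands far from the rest at 8.05 and 8.80.

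Fcgr1 encodes FcγRI, the high-affinity receptor for monomeric IgG. It had 111, 65.6 and 94.2 TMM CPM in the stimulated labelled knockout libraries, against 26.7, 57 and 32.4 in the stimulated controls. It had 33.7, 30.1 and 26.6 TMM CPM in the vehicle labelled knockout libraries, against 31.7, 30.3 and 34.2 in the vehicle controls. The stimulated labelled knockout libraries were above all others, and the vehicle groups overlapped; among the stimulated controls replicate 2 was the high one. After stimulation Fcgr1 was higher in labelled knockout cells by 1.22 ± 0.24 on the log2 scale (edgeR quasi-likelihood adjusted p = 0.00314). That call was lost when only the 2 groups were fitted (adjusted p = 0.0841; 4.04e-26 to 0.0841 over the 18 alternatives). The response to palmitate plus LPS was 1.58 ± 0.24 in labelled knockout cells (edgeR adjusted p = 3.79e-05) and 0.27 ± 0.24 in control cells (edgeR adjusted p = 0.327). The control response turned to -0.12 without stimulated control replicate 2 and to -0.07 under total-count scaling. The interaction of 1.31 ± 0.33 passed in the full fit (edgeR adjusted p = 0.0303) and in 7 of 17 alternatives, with adjusted p of 7.74e-15 to 0.1. It was lost without any 1 of the 6 vehicle libraries, without stimulated control replicate 3 and without stimulated labelled knockout replicate 1 or 3.

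Fcgr4 encodes FcγRIV, an activating receptor for IgG2a and IgG2b. In vehicle it had 39.8, 29.4 and 27.3 TMM CPM in the labelled knockout libraries, against 58, 58.3 and 65.4 in the controls. After palmitate plus LPS it had 47.7, 34.9 and 42.9 TMM CPM in the labelled knockout libraries, against 30, 39 and 31.2 in the controls. The vehicle groups stood apart, with every labelled knockout library below every control, and the stimulated groups overlapped. Fcgr4 was lower in labelled knockout cells in vehicle (log2 difference -0.92 ± 0.15, edgeR quasi-likelihood adjusted p = 0.00124), a call kept in 18 of 18 alternatives. After stimulation the difference was 0.33 ± 0.15 (edgeR adjusted p = 0.144), and 0.32 without vehicle labelled knockout replicate 1 (edgeR adjusted p = 0.0393; 0.0393 to 0.416 over the alternatives). Control cells lowered Fcgr4 on stimulation by a log2 change of -0.86 ± 0.15 (edgeR adjusted p = 7.92e-05), while in labelled knockout cells it changed by 0.38 ± 0.15 (edgeR adjusted p = 0.0289). The rise in labelled knockout cells was 0.02 under total-count scaling, and it missed the threshold without vehicle labelled knockout replicate 2 or 3 and without stimulated labelled knockout replicate 1 or 3 (12 of 18 alternatives called it). The interaction was 1.24 ± 0.21 (edgeR adjusted p = 0.00257) and was called in 17 of 17 alternatives.

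Fcgr3 encodes FcγRIII, the low-affinity activating receptor for immune complexes. After palmitate plus LPS it had 98.8, 76.8 and 97.5 TMM CPM in the labelled knockout libraries, against 147, 186 and 167 in the controls. The vehicle values were 461, 349 and 363 TMM CPM in the labelled knockout libraries, against 419, 438 and 506 in the controls. The stimulated groups did not overlap with each other or with vehicle, and the vehicle groups overlapped. Fcgr3 fell on stimulation, with a log2 change of -2.10 ± 0.13 in labelled knockout cells (edgeR quasi-likelihood adjusted p = 6.96e-10) and -1.45 ± 0.13 in control cells (edgeR adjusted p = 5.98e-08). It was lower in stimulated labelled knockout cells than in stimulated controls by a log2 difference of -0.87 ± 0.13 (edgeR adjusted p = 0.000261), and the vehicle difference was -0.22 ± 0.13 (edgeR adjusted p = 0.412). The interaction of -0.66 ± 0.18 was near the threshold (edgeR adjusted p = 0.0364, 3.99e-05 to 0.105 over 17 alternatives, 8 of which called it). It missed without vehicle control replicate 1 or 2, vehicle labelled knockout replicate 1, stimulated control replicate 2 or 3, or any 1 of the stimulated labelled knockout libraries.

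Fcgr2b encodes the inhibitory receptor. After palmitate plus LPS it had 290, 236 and 243 TMM CPM in the labelled knockout libraries, against 343, 486 and 433 in the controls. The vehicle values were 164, 133 and 121 TMM CPM in the labelled knockout libraries, against 107, 109 and 115 in the controls. Neither pair of groups overlapped, and the order of the genotypes turned round between the treatments. Stimulation raised Fcgr2b by 0.88 ± 0.13 on the log2 scale in labelled knockout cells (edgeR quasi-likelihood adjusted p = 1.87e-05) and by 1.93 ± 0.13 in control cells (edgeR adjusted p = 2.83e-09). The stimulated labelled knockout libraries were lower than the stimulated controls by a log2 difference of -0.72 ± 0.13 (edgeR adjusted p = 0.0014), while the vehicle difference of 0.33 ± 0.13 missed the threshold (edgeR adjusted p = 0.203). The interaction was -1.05 ± 0.18 (edgeR adjusted p = 0.00369) and was called in 17 of 17 alternatives.

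**Figure D2:**
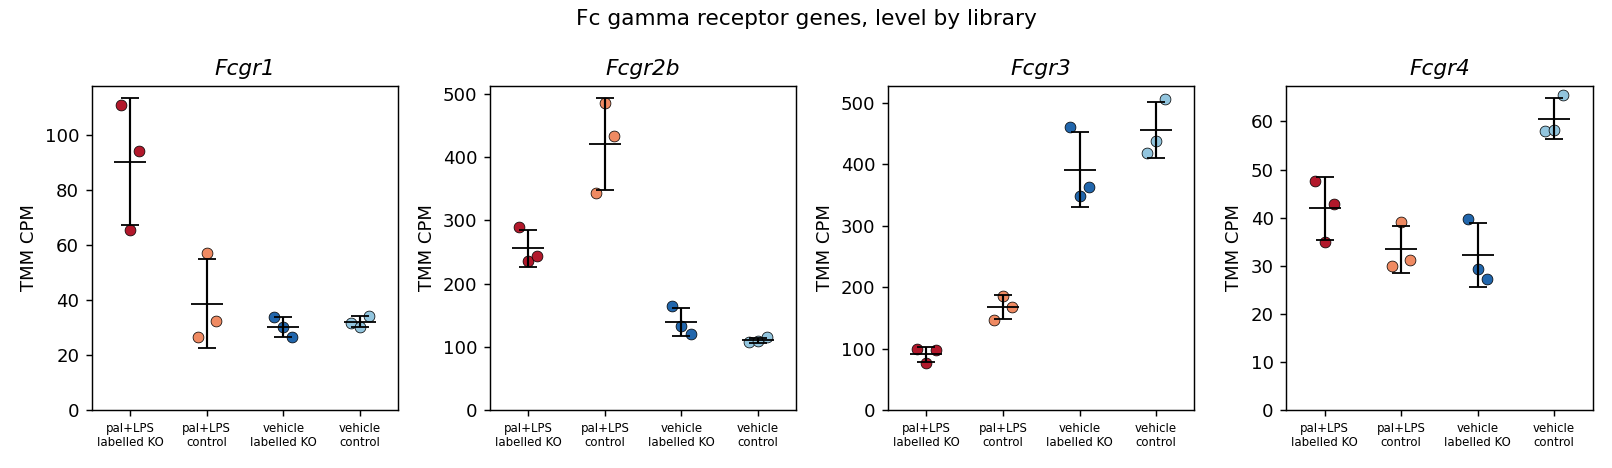
TMM CPM of the 4 Fcγ receptor genes in each library (points), with the group mean (horizontal line) and SD (bars, n = 3), each panel on its own axis from 0. Fcgr1 is high in the stimulated labelled knockout libraries, Fcgr2b in the stimulated controls, Fcgr3 in both vehicle groups and Fcgr4 in the vehicle controls.

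The make-up of the Fcγ receptor transcripts changed with treatment in both genotypes. Fcgr3 held 28.1% ± 1.44 of the summed Fcγ receptor level per kilobase in stimulated labelled knockout libraries and 39.1% ± 1.65 in stimulated controls, against 75.4% ± 1.24 in vehicle labelled knockout and 74.5% ± 0.847 in vehicle control libraries (SD, n = 3 each). Fcgr2b held 35.7% ± 2.72 and 44.2% ± 1.43 in the stimulated labelled knockout and control libraries, against 12.1% ± 0.616 and 8.19% ± 0.392 in the vehicle ones. Within libraries the inhibitory gene thus held the largest share in both stimulated groups, and Fcgr3 in both vehicle groups. Fcgr1 reached 18.4% ± 2.18 in stimulated labelled knockout libraries, against 5.91% ± 1.54 in stimulated controls, 3.92% ± 0.334 in vehicle labelled knockout and 3.54% ± 0.176 in vehicle controls. Fcgr4 held 17.8% ± 0.25, 10.8% ± 0.692, 8.54% ± 0.517 and 13.8% ± 0.32 in the same order of groups. The summed level was 187 ± 27.3, 247 ± 39.3, 299 ± 47.3 and 351 ± 31.4 TMM CPM per kilobase in that order.

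The ratio of the 3 activating genes together to Fcgr2b, per kilobase, was 1.81 ± 0.211 in stimulated labelled knockout libraries and 1.27 ± 0.0732 in stimulated controls (SD, n = 3 each). In vehicle it was 7.27 ± 0.42 in labelled knockout libraries and 11.2 ± 0.6 in controls. The ratio was therefore higher in labelled knockout libraries after stimulation and lower in them in vehicle, and no 2 groups overlapped. Each of the 4 comparisons had an exact two-sided permutation p of 0.1, the smallest that 3 against 3 libraries allow, so none could pass 0.05 (adjusted p = 0.109 over 12 ratio tests). The ratio of Fcgr2b to Fcgr3 alone was 1.28 ± 0.137 in stimulated labelled knockout and 1.13 ± 0.0698 in stimulated control libraries, which overlapped (exact permutation p = 0.3). In vehicle it was 0.161 ± 0.0108 in labelled knockout and 0.11 ± 0.00643 in control libraries (exact permutation p = 0.1). A ratio within a library does not depend on the scaling between libraries.

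**Figure D3:**
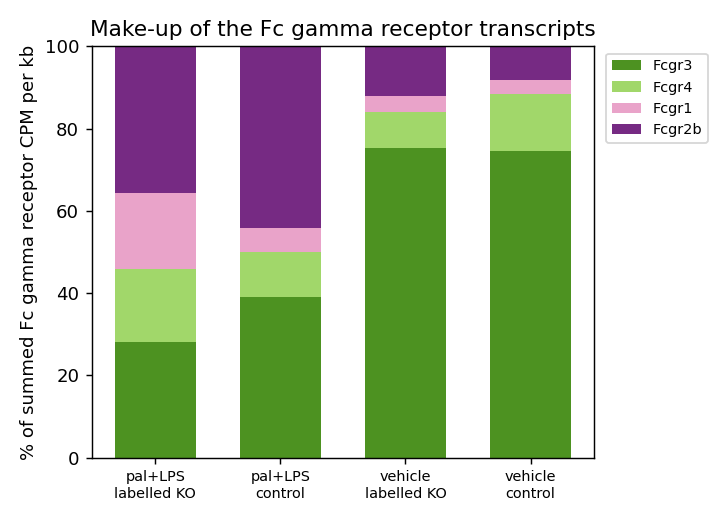
Share of each Fcγ receptor gene in the summed level per kilobase of the 4 genes, as the mean of 3 libraries per group in percent. Fcgr3 is the largest share in both vehicle groups, 75.4% and 74.5%, and Fcgr2b in both stimulated groups, 35.7% and 44.2%.

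The adaptors moved in opposite directions on stimulation. Fcer1g had 2620, 2390 and 2470 TMM CPM in stimulated labelled knockout libraries and 2450, 3080 and 2870 in stimulated controls. In vehicle it had 2040, 1300 and 1260 TMM CPM in labelled knockout libraries and 1170, 1200 and 1330 in controls. All stimulated libraries were above all vehicle ones, and the genotypes overlapped in both treatments. Fcer1g rose by 0.70 ± 0.15 on the log2 scale in labelled knockout cells (edgeR quasi-likelihood adjusted p = 0.000533) and by 1.19 ± 0.15 in control cells (edgeR adjusted p = 3.35e-06). The rise in labelled knockout cells was 0.96 without vehicle replicate 1, the library at 2040. The genotype differences were -0.17 ± 0.15 after stimulation (edgeR adjusted p = 0.473) and 0.32 ± 0.15 in vehicle (edgeR adjusted p = 0.298), and the vehicle difference was 0.06 without that library. The interaction, -0.49 ± 0.21, missed the threshold (edgeR adjusted p = 0.149).

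Tyrobp had 633, 610 and 608 TMM CPM in stimulated labelled knockout libraries and 690, 831 and 742 in stimulated controls. In vehicle it had 2180, 1360 and 1380 TMM CPM in labelled knockout libraries and 1370, 1390 and 1580 in controls. All stimulated libraries were below all vehicle ones, the stimulated labelled knockout libraries were below the stimulated controls, and the vehicle groups overlapped. The log2 change on stimulation was -1.41 ± 0.15 in labelled knockout cells (edgeR quasi-likelihood adjusted p = 3.29e-07), and -0.94 ± 0.14 in control cells (edgeR adjusted p = 2.9e-05). After stimulation the genotype difference of -0.29 ± 0.14 missed the threshold (edgeR adjusted p = 0.183). It passed in 4 of 18 alternatives, among them the fit without vehicle labelled knockout replicate 1 (edgeR adjusted p = 0.000882; 0.000882 to 0.448 over the alternatives). The ratio of Tyrobp to Fcer1g per kilobase was 0.351 ± 0.00974 and 0.383 ± 0.0162 in stimulated labelled knockout and control libraries, against 1.52 ± 0.0396 and 1.67 ± 0.021 in the vehicle ones. Labelled knockout was below control in both treatments without overlap, with exact permutation p = 0.1 each, the smallest possible.

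Trem2 had 489, 491 and 485 TMM CPM in stimulated labelled knockout libraries and 507, 576 and 529 in stimulated controls. In vehicle it had 1870, 1390 and 1400 TMM CPM in labelled knockout libraries and 1340, 1410 and 1550 in controls. Stimulated libraries were below all vehicle ones, with the labelled knockout below the control libraries; in vehicle the genotypes overlapped. The log2 change on stimulation was -1.67 ± 0.11 in labelled knockout cells (edgeR quasi-likelihood adjusted p = 1.03e-09) and -1.42 ± 0.11 in control cells (edgeR adjusted p = 8.49e-09). The genotype differences were -0.14 ± 0.11 after stimulation (edgeR adjusted p = 0.401) and 0.12 ± 0.11 in vehicle (edgeR adjusted p = 0.598), and neither they nor the interaction of -0.25 ± 0.15 (edgeR adjusted p = 0.285) passed. Trem2 and its adaptor gene Tyrobp therefore both fell in both genotypes.

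Tarm1 was among the leading receptors after stimulation and near background in vehicle. It had 239, 205 and 221 TMM CPM in stimulated labelled knockout libraries and 272, 358 and 311 in stimulated controls. Without stimulation it had 0.786, 0.876 and 0.825 TMM CPM in labelled knockout libraries and 0.635, 0.88 and 0.556 in controls. The stimulated genotypes did not overlap and the vehicle ones did. The log2 response was 8.05 ± 0.16 in labelled knockout cells (edgeR quasi-likelihood adjusted p = 3.79e-16) and 8.80 ± 0.16 in control cells (edgeR adjusted p = 1.97e-16). After stimulation Tarm1 was lower in labelled knockout cells by a log2 difference of -0.50 ± 0.10 (edgeR adjusted p = 0.0031), a call kept in 18 of 18 alternatives. The vehicle difference was 0.25 ± 0.26 (edgeR adjusted p = 0.665) and the interaction -0.75 ± 0.28 (edgeR adjusted p = 0.106).

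Trem1 and Trem3, which encode DAP12-coupled activating receptors, were at the edge of detection. Trem1 had 3, 5 and 8 counts in stimulated labelled knockout libraries and 7, 2 and 5 in stimulated controls, against 1, 0 and 0 in vehicle labelled knockout and 1, 1 and 2 in vehicle control libraries. Trem3 had 3, 2 and 8 counts in stimulated labelled knockout libraries and 3, 2 and 2 in stimulated controls, against 1, 1 and 1 in vehicle labelled knockout libraries and 0, 0 and 0 in vehicle controls. Counts of both were higher in most stimulated libraries, and the stimulated genotypes overlapped. Over a group the summed Trem1 counts were 16 (exact Poisson 95% interval 9.15 to 26) and 14 (7.65 to 23.5) in stimulated labelled knockout and control libraries, against 1 (0.0253 to 5.57) and 4 (1.09 to 10.2) in vehicle. The summed Trem3 counts were 13 (6.92 to 22.2) and 7 (2.81 to 14.4) in the stimulated libraries, against 3 (0.619 to 8.77) and 0 in vehicle. The 0 in vehicle controls allows up to 0.0475 CPM at 3 counts over the group. These intervals cover counting error only. The mean per-kilobase ratio of Trem1 to Trem2 was 0.00098 and 0.000773 in the stimulated labelled knockout and control libraries, and 1.54e-05 and 6.61e-05 in the vehicle ones. It has no test, because 2 libraries had no Trem1 count.

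**Figure D4:**
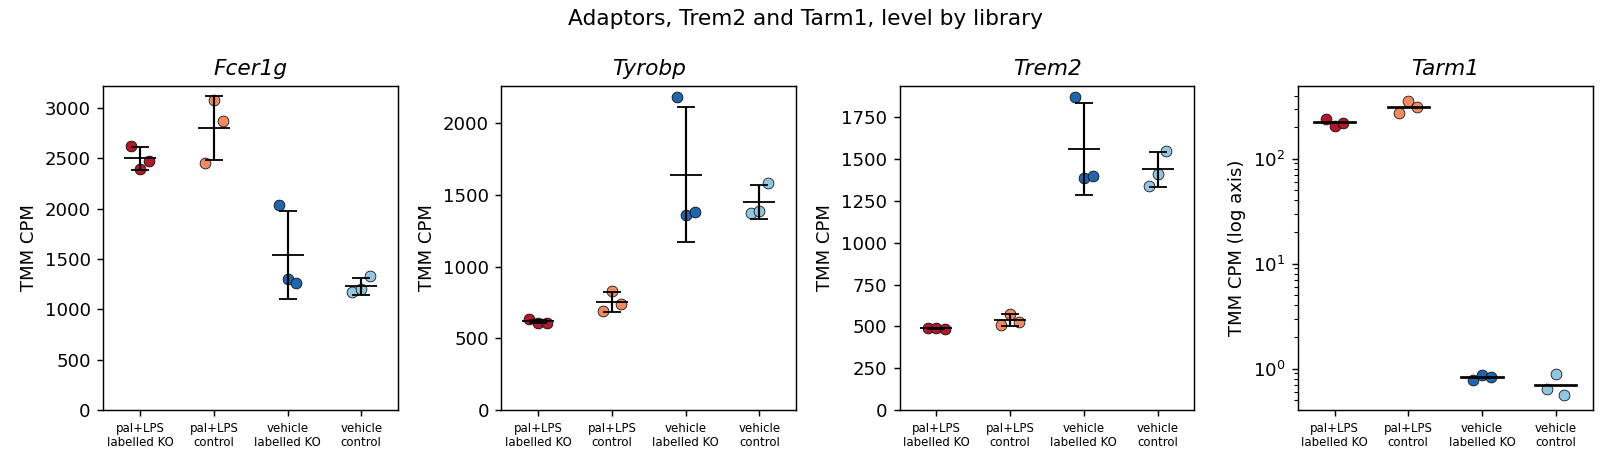
TMM CPM of Fcer1g, Tyrobp, Trem2 and Tarm1 in each library (points), with the group mean (horizontal line) and, for the first 3 genes on axes from 0, the SD (bars, n = 3), while Tarm1 is on a log axis without SD bars. Stimulated libraries are above vehicle for Fcer1g and Tarm1 and below vehicle for Tyrobp and Trem2, and vehicle labelled knockout replicate 1 is the high library of its group for Fcer1g, Tyrobp and Trem2.

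Markers of other cells moved with the groups in part. In a bulk library fewer cells of a type and less RNA per cell cannot be told apart. The summed level of 8 neutrophil markers, a cell type with abundant Fcγ receptors and Trem1, was 144 to 174 TMM CPM in stimulated labelled knockout libraries, 107 to 116 in stimulated controls, 111 to 114 in vehicle labelled knockout libraries and 77.2 to 80.7 in vehicle controls. Most of it was Csf3r, at 136 ± 14.3, 90.6 ± 3.78, 63 ± 5.1 and 57.2 ± 0.541 TMM CPM in the same order (SD, n = 3 each), and Mmp8, while Ly6g was at 0 in all 12 libraries. The list did not move one way: S100a8 was at 6.93 ± 0.332 and 15 ± 2.55 TMM CPM in stimulated labelled knockout and control libraries, and of 5 tested neutrophil markers 2 were higher and 1 lower there in labelled knockout cells, with a median log2 difference of -0.69. The 8 NK and T cell markers summed to 20.2 to 23.9, 6.06 to 7.45, 1.65 to 1.73 and 1.15 to 1.83 TMM CPM in that order. Nearly all of the stimulated sum was Klrk1, at 21.5 ± 1.64 and 6.34 ± 0.603 TMM CPM in stimulated labelled knockout and control libraries, with Ncr1 and Gzma at 0 in both. The 6 markers of large, resident-type peritoneal macrophages summed to 41.9 to 44.9 and 43.8 to 49.7 TMM CPM in stimulated labelled knockout and control libraries, against 240 to 264 and 275 to 289 in vehicle. Cd93 carried this sum, at 24.9 ± 0.99 and 27.2 ± 2.25 TMM CPM in stimulated labelled knockout and control libraries, against 228 ± 14.9 and 258 ± 7.85 in vehicle, while Timd4 went the other way, at 5.3 ± 1.05 and 4.01 ± 0.61, against 1.78 ± 0.266 and 1.5 ± 0.142. The 9 fibroblast and mesothelial markers summed to 183 to 333 TMM CPM in stimulated labelled knockout libraries, 124 to 143 in stimulated controls, 150 to 194 in vehicle labelled knockout libraries and 116 to 136 in vehicle controls. After stimulation 6 of the 9 were higher and 0 lower in labelled knockout cells, with a median log2 difference of 1.00. In that comparison 10% of all genes were called higher and 6.10% lower, which is also the background of the neutrophil counts. Col1a1 was at 66.6 ± 15.1 TMM CPM in stimulated labelled knockout libraries, against 24.7 ± 7.18 in stimulated controls. The 5 dendritic cell markers summed to 8.25 to 9, 7.12 to 8.6, 1.52 to 1.83 and 0.995 to 2.13 TMM CPM in the same order of groups. The 5 B cell markers, a cell type with abundant Fcgr2b, summed to 3.2 to 4.47, 4.63 to 7.82, 4.09 to 4.3 and 3.47 to 5.35 TMM CPM in the same order of groups. In that order, 6 small peritoneal macrophage markers summed to 2660 to 3270, 1880 to 2300, 1950 to 2690 and 1540 to 1750 TMM CPM. Cd74 carried most of this, at 2490 ± 277, 1780 ± 186, 1850 ± 359 and 1350 ± 92.3. For 8 mast cell and basophil markers the sums were 5.31 to 10.4, 6.05 to 8.81, 5.1 to 6.06 and 6.39 to 7.54. For 4 eosinophil markers they were 1.71 to 2.52, 2.16 to 2.54, 6.33 to 7.38 and 7.27 to 8.43. The part of these shifts in the receptor results was not tested.

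Downstream of the adaptors, the signalling genes of the ITAM pathway split between rises and falls. Of 25 tested kinases, adaptors and enzymes, palmitate plus LPS raised 15 and lowered 9 in labelled knockout cells and raised 10 and lowered 9 in control cells. Over all genes 33.7% were called higher and 35.6% lower in labelled knockout, and 32.0% and 34.7% in control cells. Their median log2 changes were 0.41 and 0.09, against -0.06 and -0.05 over all genes. Malt1, a protease of the CARD9 and BCL10 complex, rose by 3.54 ± 0.09 and 3.57 ± 0.09 on the log2 scale in labelled knockout and control cells (edgeR quasi-likelihood adjusted p = 8.18e-15 and 8.58e-15). Lcp2, the adaptor SLP-76, rose by 2.77 ± 0.07 and 2.76 ± 0.07. Lat2, a transmembrane adaptor, went the other way with log2 changes of -1.72 ± 0.10 and -1.91 ± 0.10, and the exchange factor gene Vav3 with -1.30 ± 0.11 and -1.54 ± 0.11.

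Between genotypes after stimulation, 5 of the 25 ITAM signalling genes were higher and 1 lower in labelled knockout cells. In that full fit 10% of all genes were called higher and 6.10% lower. Without vehicle labelled knockout replicate 1, 9 were higher and 1 lower, in a fit whose all-gene share is not given here. Sh3bp2, an adaptor that binds Syk, was higher by 0.50 ± 0.08 on the log2 scale (edgeR quasi-likelihood adjusted p = 0.000616), and the kinase gene Ptk2b by 0.42 ± 0.09 (edgeR adjusted p = 0.00437). Fgr, a Src-family kinase gene, was lower by a log2 difference of -0.39 ± 0.12 (edgeR adjusted p = 0.0345, up to 0.189 over 18 alternatives), a call lost without stimulated control replicate 2 or 3 or any 1 stimulated labelled knockout library. In vehicle 1 was higher, Src, by 0.47 ± 0.10 (edgeR adjusted p = 0.0128, called in 15 of 18 alternatives and lost without vehicle control replicate 1 or 2), and 2 were higher without vehicle labelled knockout replicate 1. In the full fit 2.11% of all genes were called higher and 1.69% lower in vehicle. The interaction was called for 4 genes, all positive: Sh3bp2 (17 of 17 alternatives), Lyn (13), Ptk2b (12) and Pik3cd (11). Over all genes it was called positive for 4.70% and negative for 3.35%. Lyn was lost without vehicle control replicate 1 or 2 or stimulated labelled knockout replicate 1. Ptk2b was lost without vehicle control replicate 2, stimulated control replicate 2 or 3 or stimulated labelled knockout replicate 3. Pik3cd was lost without vehicle control replicate 1 or 2, stimulated control replicate 3 or stimulated labelled knockout replicate 1 or 3. The interaction was called for 6 genes without vehicle labelled knockout replicate 1, in a fit whose all-gene share is not given here.

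Of 11 genes that restrain ITAM signalling, 5 rose and 5 fell on stimulation in each genotype, with median log2 changes of 0.21 in labelled knockout and -0.01 in control cells, against all-gene shares of 33.7% higher and 35.6% lower in labelled knockout and 32.0% and 34.7% in control cells. Ptpn22, a phosphatase of Src-family and Syk-family kinases, fell, with log2 changes of -3.35 ± 0.17 and -3.73 ± 0.17 in labelled knockout and control cells (edgeR quasi-likelihood adjusted p = 3.37e-11 and 1.29e-11). Inpp5d, the phosphatase SHIP1 that acts below FcγRIIB, fell too, with changes of -2.12 ± 0.16 and -2.10 ± 0.15, while Inpp5b, another inositol phosphatase gene, rose by 1.68 ± 0.12 and 1.31 ± 0.12. Ptpn6, the phosphatase SHP-1, was higher in stimulated labelled knockout cells than in stimulated controls by 0.42 ± 0.09 (edgeR adjusted p = 0.00477). The other gene higher in that comparison, Csk, was called in 11 of 18 alternatives. None was lower, and 10% of all genes were called higher and 6.10% lower in that comparison. Without vehicle labelled knockout replicate 1 the counts were 3 higher and 1 lower, in a fit whose all-gene share is not given here. In vehicle 0 were higher and 1 lower, against 2.11% and 1.69% of all genes. The lower one was Dok3, with a log2 difference of -0.42 ± 0.10 (edgeR adjusted p = 0.0317), called in 11 of 18 alternatives.

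Other receptors listed beside the ITAM adaptors, not all of which signal through them, mostly fell on stimulation. Of 21 tested, 7 rose and 14 fell in labelled knockout cells, and 6 rose and 13 fell in control cells, with median log2 changes of -1.11 and -1.05. The share of all genes called lower was 35.6% in labelled knockout and 34.7% in control cells, and higher 33.7% and 32.0%. Clec4e, the receptor Mincle that signals through the common γ chain, reached 5910 and 6300 TMM CPM on average in stimulated labelled knockout and control libraries, against 62.2 and 48.8 in vehicle, log2 rises of 6.57 ± 0.11 and 7.01 ± 0.12 (edgeR quasi-likelihood adjusted p = 9.18e-17 and 6.36e-17). The DAP12-coupled receptor gene Cd300lb was at 30.7 and 34.8 TMM CPM, against 724 and 728, log2 changes of -4.56 ± 0.09 and -4.39 ± 0.08. In vehicle 4 of the 21 were higher in labelled knockout cells and none lower: Lilra6, Clec4n (Dectin-2), Clec5a and Clec7a (Dectin-1). Over all genes 2.11% were called higher and 1.69% lower there. Without vehicle labelled knockout replicate 1, 6 were higher, in a fit whose all-gene share is not given here. The Clec7a call held in 10 of 18 alternatives and was lost without any 1 vehicle control library, vehicle labelled knockout replicate 2, or replicate 3 of either stimulated group. Clec4n had the widest of these gaps, 8.16 TMM CPM on average in labelled knockout and 3.27 in control libraries, a log2 difference of 1.34 ± 0.19 (edgeR adjusted p = 0.000397). After stimulation 3 were higher and none lower, Cd200r4 by 0.80 ± 0.09 (edgeR adjusted p = 2.3e-05), Lilra6 and Plxna1. The all-gene shares of that comparison were 10% higher and 6.10% lower. Without vehicle labelled knockout replicate 1, 5 were higher and 6 lower after stimulation, in a fit whose all-gene share is not given here.

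Receptors listed as inhibitory for an ITIM motif, the motif of FcγRIIB, also mostly fell. The motif was not checked in each mouse sequence. Of 14 tested, 3 rose and 10 fell on stimulation in each genotype, with median log2 changes of -1.03 in labelled knockout and -0.83 in control cells, where 35.6% and 34.7% of all genes were called lower and 33.7% and 32.0% higher. Lair1, a collagen receptor, fell, with a log2 change of -2.98 ± 0.08 in labelled knockout and -2.69 ± 0.08 in control cells (edgeR quasi-likelihood adjusted p = 2.38e-14 and 8.85e-14), and was higher in labelled knockout cells in vehicle by 0.54 ± 0.08 (edgeR adjusted p = 0.000425). Pilra rose, by 3.29 ± 0.13 and 3.88 ± 0.14, and was lower in stimulated labelled knockout cells than in stimulated controls by a log2 difference of -0.40 ± 0.12 (edgeR adjusted p = 0.0327, up to 0.141 over 18 alternatives). That call was lost without stimulated control replicate 2 or 3 or any 1 stimulated labelled knockout library. Cd33, a sialic acid receptor, rose to 38 TMM CPM on average in stimulated labelled knockout libraries and 74.7 in stimulated controls, against 11.1 and 14.2 in vehicle. It was lower in stimulated labelled knockout cells by a log2 difference of -0.97 ± 0.09 (edgeR adjusted p = 3.74e-06), with an interaction of -0.61 ± 0.13 (edgeR adjusted p = 0.0121). After stimulation 2 of the 14 were lower in labelled knockout cells, Cd33 and Pilra, and 2 higher, Clec4a1 and Lair1. Over all genes 16.1% were called there, 6.10% lower. The Clec4a1 and Lair1 calls held in 13 and 5 of 18 alternatives. In vehicle 3 were higher and 0 lower, against 2.11% and 1.69% of all genes. Without vehicle labelled knockout replicate 1, 2 were higher and 5 lower after stimulation, and 3 and 2 in vehicle. The all-gene shares of that fit are not given here. Cd33, Pilra and the member Fcgr2b thus rose in both genotypes and were lower in stimulated labelled knockout cells, but the list was mixed.

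Of 16 other genes of the Fc receptor and TREM families, 9 were tested: 4 rose and 5 fell on stimulation in labelled knockout cells, and 3 rose and 5 fell in control cells, with median log2 changes of -0.79 and -1.04. Over all genes 69.4% were called in labelled knockout and 66.7% in control cells. Trim21, a cytosolic antibody receptor, rose by 3.47 ± 0.15 on the log2 scale in labelled knockout and by 3.08 ± 0.15 in control cells, and Fcgrt, the neonatal Fc receptor, fell, with changes of -1.52 ± 0.13 and -1.47 ± 0.13 (edgeR quasi-likelihood adjusted p of 5.66e-08 or below in all 4). Treml2, which lies in the TREM cluster, had 6.45 and 2.33 TMM CPM on average in stimulated labelled knockout and control libraries, against 2.85 and 4.82 in vehicle. It was higher in labelled knockout cells after stimulation by 1.47 ± 0.18 (edgeR adjusted p = 4.33e-05) and lower in vehicle by a log2 difference of -0.75 ± 0.17 (edgeR adjusted p = 0.0176), with an interaction of 2.22 ± 0.24 (edgeR adjusted p = 0.000105). The vehicle difference was called in 15 of 18 alternatives and missed without vehicle control replicate 2 or 3 or vehicle labelled knockout replicate 2. Treml4 was lower in labelled knockout cells after stimulation by a log2 difference of -1.18 ± 0.23 (edgeR adjusted p = 0.00217), at 1.95 TMM CPM against 4.41 in controls.

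Of 7 tested genes for ligands and sheddases of TREM receptors, 3 rose and 4 fell on stimulation in labelled knockout cells, and 2 rose and 4 fell in control cells (median log2 changes -0.54 and -0.68), against all-gene shares of 33.7% higher and 35.6% lower, and 32.0% and 34.7%. Clu, an apolipoprotein ligand of TREM2, rose by 2.46 ± 0.24 and 2.59 ± 0.25 on the log2 scale in labelled knockout and control cells (edgeR quasi-likelihood adjusted p = 5.31e-07 and 4.63e-07). Apoe, a TREM2 ligand of lipoproteins, changed by a log2 value of -0.68 ± 0.10 in control cells (edgeR adjusted p = 1.3e-05). Adam17, a protease that sheds TREM2, was higher in stimulated labelled knockout cells than in stimulated controls by 0.53 ± 0.13 (edgeR adjusted p = 0.0125, called in 15 of 18 alternatives; lost without stimulated control replicate 2 or 3). Of 16 tested genes of lipid-associated, Trem2-positive macrophages, 3 rose and 12 fell in labelled knockout and 2 rose and 11 fell in control cells (median log2 changes -0.72 and -0.70), against the same all-gene shares. Cst7 rose by 7.04 ± 0.17 and 7.48 ± 0.19, while Lipa, the lysosomal acid lipase, fell, with a change of -1.67 ± 0.07 in both (edgeR adjusted p = 4.58e-12 and 5.14e-12). In vehicle, Plin2, which coats lipid droplets, and the fatty acid receptor gene Cd36 were lower in labelled knockout cells, by log2 differences of -1.03 ± 0.09 and -0.90 ± 0.08 (edgeR adjusted p = 8.07e-06 and 9.15e-06). They were the 2 called among the 16 in vehicle, against 2.11% of all genes called higher and 1.69% lower. Without vehicle labelled knockout replicate 1, 5 were lower, in a fit whose all-gene share is not given here. After stimulation 1 of the 16 was higher in labelled knockout cells and 4 lower, against 10% and 6.10% of all genes. Cd36 was among the lower ones there too, with a log2 difference of -0.91 ± 0.08 (edgeR adjusted p = 3.55e-06). All of these lists were chosen with earlier results of these data known.

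The genes whose levels followed each member most closely were taken by Pearson's r over the 12 libraries in log2(TMM CPM + 1), among 6931 genes with a mean of 10 CPM or more. The 12 libraries fall into 2 treatment clusters, so a high r describes mainly a shared treatment response. Closest to Tarm1 were Fpr2, a formyl peptide receptor gene, with r = 0.9997, Alpk2 with 0.9994 and Il1b with 0.999. The genes nearest Trem2 were Fuca1 (0.9984), Erp29 and Calm2, and closest to Tyrobp were Gstm1 (0.9978), Dhrs7 and Mdh1. Closest to Fcer1g were Mrpl15 (0.9981), Eloc and Mrpl35, and closest to Fcgr3 were Glul (0.9919), Glo1 and Ucp2. Closest to Fcgr2b were Hmox1 (0.984), Mrpl52 and Marcks. Fcgr1, which was raised in the stimulated labelled knockout libraries, was closest to Adap2os (0.9746), Adap2 (0.9729) and Rhoh (0.9527). Fcgr4 had the loosest partners, Hadha (0.8621), Por (0.8423) and Nr1h3 (0.841).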

How the data were processed

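Total RNA of 12 macrophage cultures was sequenced from Clontech SMARTer v1 libraries, per the labels' protocols. Per the submitters' processing notes, the tools were bcl2fastq 2.0, STAR 2.0.4b, Subread and featureCounts 1.45, and the build was GRCm38. Options, annotation and strandedness were not given in the sources used here, so reads of overlapping antisense genes could not be told apart. This bears on genes outside the set, because no exon of a member overlapped an exon of another gene. The authors deposited, per library, a raw count for each of 41388 Ensembl genes. The deposited CPM is that count relative to all counts of its library. The deposited RPKM is that CPM per kilobase of merged exons. Neither entered a test. A table of gene names gave 40254 IDs a symbol, and all 10 members were found.

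Library titles gave the groups. Counts were filtered with filterByExpr, which left 12914 genes, scaled by TMM and tested in edgeR 4.0.16 (quasi-likelihood F-test, R 4.3.3) over all 12 libraries, with 1 mean per group and Benjamini-Hochberg adjustment over all genes tested. The 5 comparisons were genotype within treatment, treatment within genotype and the interaction. Levels per kilobase are TMM CPM divided by exon length. Ratios were tested by exact permutation. Alternatives were DESeq2 1.42.0, other scalings, no filter, fits of 2 groups, a replicate block and leaving out each library. After the group mean of each gene was subtracted, same-numbered libraries of different groups correlated at -0.484 to 0.157, so the numbers were not taken to pair them.

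Members, gene lists and motifs were chosen with earlier results of these data known. Besides the members and Pparg, the naming rule took from each list and comparison up to 4 called genes with the smallest p-values and up to 2 going the other way, and for each tested member the 3 genes most like it; fewer are named. The depth of 17960457 to 22696385 counts limits the lowest members to counting error.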

Additional observations from a re-analysis of the deposited data

Results flagged for a closer look

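The values below are log2 responses to palmitate plus LPS in labelled knockout cells minus those in control cells. Each was picked out because the interaction test of edgeR, adjusted over 12914 genes, found that the response differed between the genotype labels.

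Among the members, all 4 Fcγ receptor genes were picked out, with values of 1.31 for Fcgr1, 1.24 for Fcgr4, -1.05 for Fcgr2b and -0.66 for Fcgr3. The calls of Fcgr4 and Fcgr2b held in 17 of 17 alternatives, those of Fcgr1 in 7 and of Fcgr3 in 8.

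Among ITAM signalling genes the values were 0.62 for Sh3bp2, 0.54 for Ptk2b, 0.90 for Pik3cd and 0.57 for Lyn, and 0.42 for the inhibitory kinase gene Csk, which was called in 4 of 17 alternatives. Among the receptors listed as inhibitory they were -0.61 for Cd33, -0.70 for Clec12a and -0.60 for Pilra, the last called in 9 of 17 alternatives. Among the other receptors listed beside the adaptors they were 0.65 for Cd200r4, -1.40 for Clec4n, -0.55 for Clec7a and -0.58 for Clec5a. Treml2 had the widest difference, 2.22. In the remaining lists the values were 0.82 for Actb, 1.13 for Plin2 and -0.55 for Lpl.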

How the results depend on the processing

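Of 712 member values under the alternatives, 670 kept their direction and side of the threshold, 26 fell short of it, 12 newly passed it and 4 changed sign. The sign changes were all of uncalled values. Fcgr1 in control cells turned to -0.07 under total-count scaling and to -0.12 without stimulated control replicate 2 (-0.12 to 0.49 leaving out each library), and the vehicle genotype differences of Tyrobp and Trem2 turned to -0.08 and -0.04 without vehicle labelled knockout replicate 1 (-0.08 to 0.30 and -0.04 to 0.19 leaving out each library). Total-count scaling moved the median log2 change of all genes on stimulation to -0.424 in labelled knockout and -0.38 in control cells, against -0.056 and -0.048 with TMM.

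Counts of members called moved as follows. For the interaction, the replicate block gave 1 higher and 1 lower, and no filter on low counts gave 4 lower. For genotype after stimulation, no filter gave 2 higher, fitting only the 2 groups gave 0 higher and total-count scaling gave 5 lower. For genotype in vehicle, no filter gave 2 higher. For stimulation of control cells, no filter gave 5 higher. Counts over all genes for the interaction were 1875 with no filter and 514 with the replicate block, for genotype after stimulation 3811 with only the 2 groups, and for genotype in vehicle 960 with no filter and 229 with only the 2 groups. Leaving out 1 library at a time gave 428 to 1962 genes for the interaction, with 1 to 2 members higher and 1 to 3 lower. It gave 1227 to 4080 genes and 1 to 2 members higher for genotype after stimulation, and 261 to 789 genes for genotype in vehicle. The causes were not tested. In the replicate numbers, same-numbered libraries did not vary together, so the block is not read as a paired analysis. Among the calls that the block also lost were the interaction calls of Fcgr1, Fcgr3, Lyn and Pilra. Others were the genotype calls of Fgr, Pilra, Csk, Lair1 and Ctsd after stimulation and of Clec7a and Dok3 in vehicle. No ratio changed direction under its alternatives. Trem1 and Trem3 rest on 0 to 8 counts a library, and the origin of the replicates is not given.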
